A study of Homo sapiens with 6 samples.

Results

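The genes described here are EGFR, MET and TGFBR2, which encode 3 growth factor receptors, in iCLIP of the RNA-binding protein QKI-5. Each gene was taken as 1 stretch of the plus strand in hg19, counted from 1: EGFR on chromosome 7 from 55086725 to 55275031 (188.307 kb), MET on chromosome 7 from 116312459 to 116438440 (125.982 kb) and TGFBR2 on chromosome 3 from 30647994 to 30735633 (87.64 kb). The 3 genes hold 9199 of the 8284652 crosslink positions listed over all 6 libraries, of which 6107 lie in EGFR, 2043 in MET and 1049 in TGFBR2. The intervals were set by coordinates, and the choice of genes was made with earlier results of these data known.

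Crosslinking and immunoprecipitation at single-nucleotide resolution (iCLIP) fixes protein to RNA in living cells with ultraviolet light, here 150 mJ/cm2, and reads the nucleotide where reverse transcription stopped. Each such stop is 1 crosslink event. The study has 3 QKI-5 iCLIP libraries, made with an antibody against QKI-5 that the laboratory raised itself, and 3 control libraries made without antibody. The cells of all 6 were BEAS2B, an established cell line from human bronchial epithelium, with no other treatment or genotype named. The labels number replicates 1, 2 and 3 in either group without calling them separate cultures. The p-values therefore reflect the spread among 6 libraries, and part of that spread may be technical.

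QKI-5 is the nuclear form of Quaking, a STAR-family protein that binds RNA and regulates the splicing of pre-mRNA, so its contacts can fall in introns as well as exons. EGFR is the receptor tyrosine kinase that binds epidermal growth factor and drives epithelial proliferation. MET is the receptor tyrosine kinase for hepatocyte growth factor, which promotes cell scattering and migration. TGFBR2 is the serine/threonine kinase receptor that binds TGF-beta, recruits the type I receptor and so starts SMAD signalling, a known brake on epithelial growth and driver of epithelial-mesenchymal transition. No hg19 annotation or genome was used here, so positions are given by distance along each gene, and exons, introns, UTRs, sequence motifs and markers of bronchial epithelium were not analysed.

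The QKI-5 libraries held 7283982, 2143279 and 2889146 events and the controls 137926, 41475 and 29810. Levels are given as events per 1000000 events of the library (EPM). A floor of 3 events equals 0.412 to 1.40 EPM in the QKI-5 libraries and 21.8 to 101 EPM in the controls, so control values within a gene are coarse. Intervals are 95% exact intervals (Poisson for levels, binomial for ratios and shares) and cover counting error only, since events may include PCR copies. RNA levels were not measured in these libraries, so the amount of a transcript and how often each copy was crosslinked cannot be told apart.

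EGFR carried the most events of the 3 genes. It held 5390, 1547 and 1655 events in QKI-5 replicates 1, 2 and 3, against 77, 24 and 8 in control replicates 1, 2 and 3. As shares of each library these were 740 EPM (interval 720 to 760), 722 EPM (686 to 759) and 573 EPM (546 to 601) in the QKI-5 libraries, against 558 EPM (441 to 698), 579 EPM (371 to 861) and 268 EPM (116 to 529) in the controls. The third QKI-5 library lay below the second control, so the groups overlapped. The means were 678 ± 91.7 EPM with the QKI-5 antibody and 468 ± 174 EPM without it (SD, n = 3 each; two-sided exact permutation p = 0.2, where 0.1 is the smallest p that 3 libraries against 3 can give). Over pooled libraries the ratio of QKI-5 to control was 1.34 (1.11 to 1.63).

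MET held 1764, 503 and 590 events in the QKI-5 libraries, against 18, 13 and 5 in the controls. These equal 242, 235 and 204 EPM in the QKI-5 libraries and 131, 313 and 168 EPM in the controls. The second control exceeded every QKI-5 library and the other two controls lay below them, so the groups overlapped. Means were 227 ± 20.1 EPM in QKI-5 iCLIP and 204 ± 96.7 EPM in the control (SD, n = 3 each; exact permutation p = 0.8), with a pooled ratio of 1.35 (0.971 to 1.93).

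TGFBR2 held 866, 206 and 333 events in the QKI-5 libraries, against 7, 4 and 1 in the controls. In EPM the QKI-5 libraries stood at 118.9, 96.1 and 115, and the controls at 50.8, 96.4 and 33.5. The second QKI-5 library and the second control were nearly level, while the other QKI-5 libraries exceeded every control. Means were 110.1 ± 12.2 EPM in QKI-5 iCLIP and 60.2 ± 32.5 EPM in the control (SD, n = 3 each; exact permutation p = 0.2). The pooled ratio was 1.99 (1.13 to 3.86), and it rests on 12 control events.

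**Figure D1:**
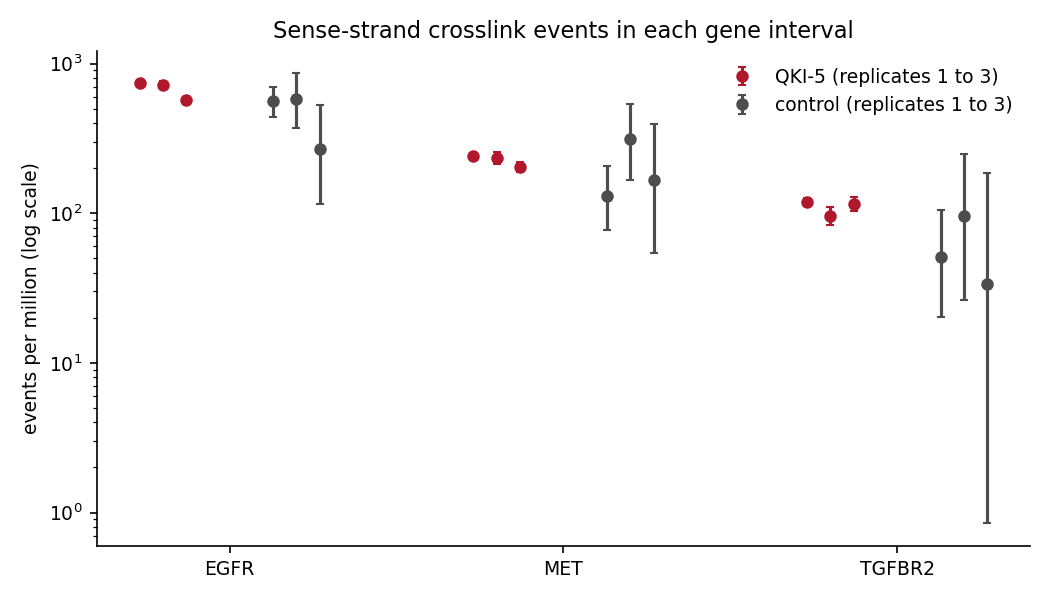
EPM in EGFR, MET and TGFBR2 (log axis), 1 point a library, with 95% exact Poisson intervals; QKI-5 libraries stand left of the controls in each gene. QKI-5 libraries run from 573 to 740 EPM in EGFR, 204 to 242 in MET and 96.1 to 118.9 in TGFBR2, and overlap the wider control values in every gene.

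Per length the order was the same. EGFR had 3.93, 3.83 and 3.04 EPM per kb in the QKI-5 libraries, MET 1.92, 1.86 and 1.62, and TGFBR2 1.36, 1.10 and 1.32. No 2 genes overlapped in this order in the QKI-5 libraries. In the controls the mean level per length was 2.49 ± 0.922 EPM per kb for EGFR, 1.62 ± 0.767 for MET and 0.687 ± 0.371 for TGFBR2 (SD, n = 3 each), the same order with overlapping libraries.

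Tested with edgeR's quasi-likelihood test in 1 table with all other 10 kb windows of the genome, scaled by library totals, 0 of the 3 genes were called higher or lower in QKI-5 iCLIP at an adjusted p under 0.05. Of the rows fitted together, 0.0769% of 29926 were called higher and 0.194% lower. On the log2 scale EGFR differed by 0.47 in QKI-5 over control (SE 0.44, edgeR adjusted p = 0.729), MET by 0.29 (SE 0.46, adjusted p = 0.854) and TGFBR2 by 0.93 (SE 0.58, adjusted p = 0.514), while the median over all rows was 0.22. With library totals, none of the 3 genes had an unadjusted p under 0.05 in edgeR. The DESeq2 Wald test, with its own size factors, also called 0 of them, at adjusted p = 0.265 for EGFR, 0.127 for MET and 0.0627 for TGFBR2, against 2.57% of the 15509 rows with an adjusted p called higher and 1.27% lower. At an unadjusted p under 0.05 it had 2 of the 3 genes, MET and TGFBR2, against 4.28% of the 174692 rows with any event. Those rows are 10 kb windows not filtered on low counts, while the genes are far longer, so this is not a like comparison. Other scaling moved the 3 genes and the genome together: TMM factors put EGFR at 1.10, MET at 0.98 and TGFBR2 at 1.52, with the median of all rows at 0.78. The unadjusted edgeR p was then 0.0470 for EGFR, 0.0555 for MET and 0.0110 for TGFBR2, while 5524 of the 29926 rows had p under 0.05. With DESeq2 size factors in edgeR it was 0.0775, 0.121 and 0.0245 in the same order, against 4731 of the 29926 rows. Without control replicate 1, which holds 18 of the 36 control events in MET, the log2 fold change of MET was -0.14.

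Ratios between genes within a library do not depend on scaling. The log2 ratio of MET to TGFBR2 events was 1.03, 1.29 and 0.82 in the QKI-5 libraries and 1.30, 1.58 and 1.87 in the controls. All 3 controls lay above all 3 QKI-5 libraries, of which the second nearly reached the lowest control, and the mean difference was -0.54 (exact permutation p = 0.1, the smallest possible, and 0.3 adjusted over the 3 pairs compared). When each position was counted once, that difference was -0.04 (exact permutation p = 0.9). EGFR to MET gave 1.61, 1.62 and 1.49 in the QKI-5 libraries and 2.07, 0.86 and 0.63 in the controls, a difference of 0.39 (exact permutation p = 0.4, adjusted 0.6). That difference was 0.83 without control replicate 1, 0.23 without control replicate 2, 0.11 without control replicate 3 and 0.25 when each position was counted once. EGFR to TGFBR2 gave 2.64, 2.91 and 2.31 in the QKI-5 libraries and 3.37, 2.44 and 2.50 in the controls, a difference of -0.15 (exact permutation p = 0.8, adjusted 0.8) that was 0.14 without control replicate 1 and 0.21 when each position was counted once. Over the QKI-5 libraries EGFR carried on average 1.99 times as many events per kb as MET and 2.86 times as many as TGFBR2, and MET 1.44 times as many as TGFBR2.

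Events were spread thinly over each gene. The QKI-5 libraries together marked 5592 distinct nucleotides in EGFR, 1894 in MET and 1003 in TGFBR2, of which 30, 8 and 4 were marked in all 3 libraries. With the positions of each QKI-5 library counted separately, between 71.2% and 73.6% held a single event. The highest count at 1 nucleotide in a library was 10 in EGFR, 25 in MET and 6 in TGFBR2. Events per position ran from 1.25 to 1.67 over the 3 genes and 3 QKI-5 libraries, against 1.39 to 1.75 over the whole libraries, and from 1.00 to 2.50 in the controls, against 1.30 to 1.62.

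The first QKI-5 event lay 72 nt inside the start of EGFR, 45 nt inside MET and 82 nt inside TGFBR2. In the 10 kb before each start the QKI-5 libraries had 0, 0 and 0 events for EGFR, 0, 1 and 2 for MET and 0, 0 and 0 for TGFBR2, against 1 control event before EGFR and none before the others. Signal on the plus strand thus began close to the start of each interval. It did not end as sharply.

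Beyond the end of its interval, EGFR was followed by 119, 31 and 32 plus-strand events within 5 kb in the QKI-5 libraries, equal to 16.3, 14.5 and 11.1 EPM, against 0 in the controls. This exceeded the last 5 kb inside the interval, with 51, 16 and 18 events or 7.002, 7.47 and 6.23 EPM, in all 3 libraries. By kb after the end, the pooled QKI-5 counts were 54, 28, 39, 23 and 38, and then 4 in the next kb. From 10 to 20 kb after the end there were 0. In RefSeq (GRCh38.p14, used for gene order alone) the next gene on either strand is ELDR, a long non-coding RNA, and EGFR itself has a longer span than the interval used here. Whether these events belong to EGFR transcripts was not tested. MET had 17, 0 and 0 QKI-5 events in the same 5 kb. TGFBR2 had 30, 12 and 7 events there and 14, 4 and 4 events from 5 to 10 kb, against 0 in the controls, with GADL1 as the next gene. In pooled QKI-5 libraries the level in the first 5 kb was 14.8 EPM after EGFR and 3.98 EPM after TGFBR2. The floor of 3 events over the pooled controls is 14.3 EPM. EGFR lay just above it, and a lower control level after TGFBR2 was not detectable. Event density in the gene over that in the 10 kb on both sides was 4.75 for EGFR, 19.7 for MET and 4.52 for TGFBR2 in pooled QKI-5 libraries. With 5 kb on both sides it was 2.51 for EGFR and 11.3 for MET, and with 20 kb it was 9.51 for EGFR, 37.8 for MET and 8.22 for TGFBR2. Without QKI-5 replicate 1 the MET value was 34.7.

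The 3 genes differed in where along their length QKI-5 events lay. Each gene was divided into 3 parts of equal length. EGFR was loaded towards its start: the first part held 65.2, 61.5 and 62.5% of its events in the QKI-5 libraries, the middle part 21.7, 21.3 and 23.1% and the last part 13.1, 17.1 and 14.4%. MET was loaded at both ends, with 43.8, 37.6 and 39.3% in the first part, 13.3, 16.3 and 10.7% in the middle and 42.9, 46.1 and 50.0% in the last. TGFBR2 was the most even, with 34.4, 26.2 and 30.6%, then 27.4, 39.3 and 36.0%, then 38.2, 34.5 and 33.3%. The EGFR shares of the first part overlapped those of neither other gene, and this comparison between genes is a description without a test.

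In the controls too the first part held the largest share of EGFR events, with 57.1, 41.7 and 100%. The mean was 63.1 ± 1.88% in QKI-5 iCLIP and 66.3 ± 30.2% in the control (SD, n = 3 each; exact permutation p = 1.0). Control replicate 3 rests on 8 events, and without it the QKI-5 mean was 13.7 percentage points above the control mean. For MET the first part held 40.2 ± 3.22% in QKI-5 iCLIP and 21.1 ± 6.26% in the control, where the 3 libraries had 27.8, 15.4 and 20%. The groups did not overlap in MET, and the difference was 19.2 percentage points (exact permutation p = 0.1, the smallest possible). It was 6.26 percentage points when each position was counted once (exact permutation p = 0.5). For TGFBR2 the values were 30.4 ± 4.10% in QKI-5 iCLIP and 67.9 ± 36.2% over controls of 7, 4 and 1 events (exact permutation p = 0.3).

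**Figure D2:**
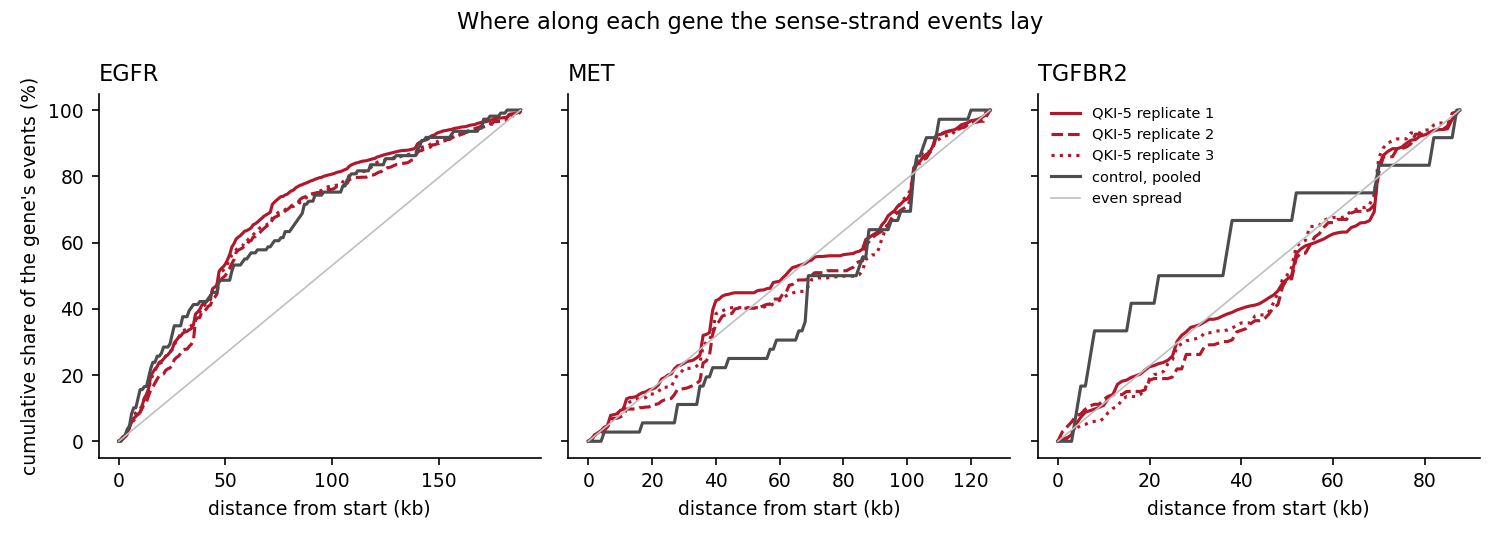
Cumulative share of a gene's plus-strand events (%) against distance from its start (kb), for QKI-5 replicates 1 to 3 and the pooled controls, with a grey line for an even spread. In EGFR all curves run above the even line, in MET the QKI-5 curves are flat in the middle, and in TGFBR2 they stay near the even line with a step near 69 kb.

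The median event lay 46.7, 49.3 and 47.0 kb from the start of EGFR in the QKI-5 libraries, against 53.5, 76.0 and 29.6 kb in the controls (exact permutation p = 0.7). In MET it lay at 61.5, 69.4 and 83.5 kb in the QKI-5 libraries, against 84.4, 68.8 and 101.5 kb in the controls (exact permutation p = 0.3). In TGFBR2 it lay at 50.8, 51.6 and 49.8 kb in the QKI-5 libraries, against 37.3, 15.7 and 7.47 kb in the controls (exact permutation p = 0.1). The TGFBR2 groups did not overlap, on 12 control events in all.

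The last 5 kb of EGFR, 2.66% of its length, held 0.946, 1.03 and 1.09% of its events in the QKI-5 libraries, a mean of 1.02 ± 0.0714%. Controls had 0 of 109 events there, which allows a share of up to 2.75%, so a difference was not detectable at this depth (exact permutation p = 0.1). The last 5 kb of MET, 3.97% of its length, held 3.06, 3.78 and 3.39% of events in the QKI-5 libraries, against 0 of 36 in the controls, which allows up to 8.33% (exact permutation p = 0.1). In TGFBR2 the last 5 kb, 5.71% of the length, held 6.005, 5.83 and 3.904% in the QKI-5 libraries, against 0, 25.0 and 0% in the controls, of which the value of 25.0% is 1 event (exact permutation p = 1.0). The QKI-5 share there was below the share of length in EGFR and near it in TGFBR2.

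In 1 kb bins, every one of the 189 bins of EGFR had a QKI-5 event, and 162 had one in all 3 QKI-5 libraries. MET had events in 118 of 126 bins, and a run of 5 kb without any, from 116359459 to 116364458. TGFBR2 had events in 87 of 88 bins. The highest bin exceeded the median bin 11.0-fold in EGFR, 15.2-fold in MET and 14.3-fold in TGFBR2, and the top 10 bins held 23.9, 36.8 and 41.0% of the signal. Bin profiles of 2 QKI-5 libraries correlated with Pearson r from 0.666 to 0.848 in EGFR (189 bins), 0.742 to 0.898 in MET (126 bins) and 0.730 to 0.832 in TGFBR2 (88 bins). Spearman rho ran from 0.671 to 0.801, 0.542 to 0.660 and 0.286 to 0.540 in the same order. Bins are stretches of 1 transcript and not replicates.

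**Figure D3:**
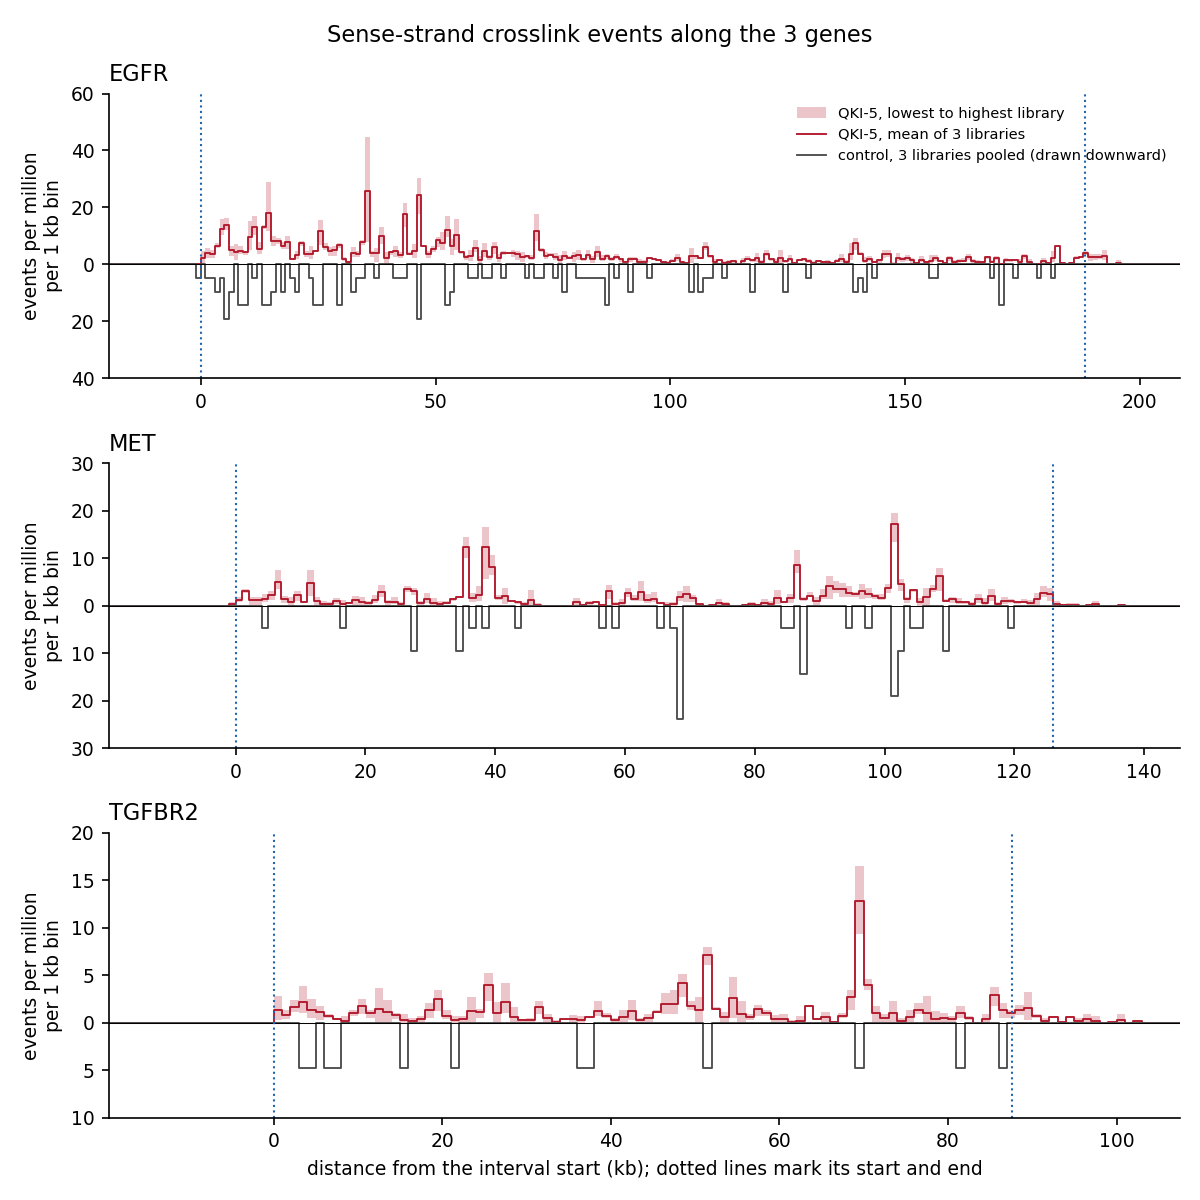
Plus-strand EPM in 1 kb bins along each gene and its flanks (kb from the start), QKI-5 upward as the mean of 3 libraries with the lowest to highest library shaded, pooled controls downward. The highest QKI-5 bins reach a mean of 25.7 EPM in EGFR, 17.3 in MET and 12.9 in TGFBR2.

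The highest EGFR bin started 35 kb into the gene (55121725 to 55122724) and held 24.4, 44.8 and 7.96 EPM in the QKI-5 libraries, against 0 control events. Replicate 3 lay far below replicate 2 here. The bin at 46 kb held 30.2, 25.7 and 17.7 EPM in the QKI-5 libraries, against 1, 0 and 3 control events, and the bin at 14 kb held 28.8, 11.7 and 14.2 EPM, against 1, 2 and 0. In MET the bin at 101 kb led with 18.7, 19.6 and 13.5 EPM in the QKI-5 libraries, against 0, 0 and 4 control events. It was followed by the bins at 35 kb, with 14.6, 12.6 and 10.04 EPM in the QKI-5 libraries and 0 control events, and at 38 kb, with 16.5, 14.9 and 5.54 EPM against 1 control event. In TGFBR2 the bin at 69 kb (30716994 to 30717993) led with 16.5, 9.33 and 12.8 EPM in the QKI-5 libraries, against 1 control event. The next bins, at 51 kb with 7.96, 6.07 and 7.27 EPM and at 48 kb with 2.75, 5.13 and 4.85 EPM, had 1 and 0 control events.

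In 10 kb windows, 43 windows covered the 3 genes and 37 held enough events to be tested: 20 of 20 in EGFR, 11 of 13 in MET and 6 of 10 in TGFBR2. The untested windows of MET and TGFBR2 are those with the fewest events. At an adjusted p under 0.05 (edgeR), 0 windows were called higher, against 0.0768% of 29960 windows in the genome, and 0 were called lower, against 0.194%. Without adjustment 4 of 37 windows had p under 0.05, or 2 in EGFR, 1 in MET and 1 in TGFBR2, against 13.3% of all windows. The DESeq2 Wald test gave no adjusted p to 24 of the 43 windows, which are 7 in EGFR, 7 in MET and all 10 in TGFBR2, so these could not be called. It called 0 of the other 19, against 2.57% of windows with an adjusted p called higher and 1.26% lower. Without adjustment it had 9 of 43 windows at p under 0.05, 5 of them in EGFR, 1 in MET and 3 in TGFBR2, against 4.28% of all 174732 windows with any event. That base is not filtered on low counts, and 15512 of its windows had an adjusted p, so these shares are not a like comparison. The log2 fold change was above 0 in 11 of 20 EGFR windows, 8 of 11 MET windows and 5 of 6 TGFBR2 windows, against 58.5% of all windows. These counts cover only windows that passed the filter on low counts. Without the filter 27 of the 43 windows of the 3 genes were above 0, against 80.6% of 174732 windows. The median of the 43 was then 0.58, against 1.34 over all windows, so the comparison with the genome depends on the filter. With the filter the median was 0.28 in EGFR, 1.19 in MET and 1.61 in TGFBR2, against 0.22 over all windows.

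The windows of EGFR ranked high by level and those of TGFBR2 low. The median tested EGFR window lay at percentile 67.4 of all tested windows by QKI-5 level, MET at 46.4 and TGFBR2 at 26.7. These medians leave out the untested windows, which ranked lower, at 0.174 and 1.21 in MET and from 0.0134 to 9.22 in TGFBR2. The lowest TGFBR2 value is that of its first window, which starts 7.99 kb before the gene and covers it only in part. Within EGFR the windows ran from percentile 13.3 to 98.7. The first EGFR window, at 13.3, likewise starts 6.72 kb before the gene, and the lowest window wholly inside EGFR lay at 30.8. The highest EGFR window was 55130001 to 55140000, with 114, 89.1 and 76.1 EPM in the QKI-5 libraries, against 29.0, 24.1 and 101 EPM in the controls. By edgeR the log2 fold change was 1.26 (adjusted p = 0.375), and control replicate 3 lay among the QKI-5 values. That control value is 3 events, all at 1 nucleotide. Next came 55090001 to 55100000, with 83.7 ± 14.7 EPM in QKI-5 iCLIP and 85.9 ± 16.4 EPM in the control (SD, n = 3 each), a log2 fold change of -0.10 that was 0.0042 without control replicate 1 and 0.49 with TMM factors, and 55100001 to 55110000, with 75.2 ± 7.45 EPM in QKI-5 iCLIP and 57.8 ± 33.8 EPM in the control. In all 3 of these windows the groups overlapped.

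Besides the leading window, the EGFR windows of lowest unadjusted p were those from 55120001 and 55270001. The window 55120001 to 55130000 had 71.7, 91.9 and 50.5 EPM in the QKI-5 libraries, against 36.3, 0 and 0 EPM in the controls. No control reached a QKI-5 library there. The pooled ratio was 2.94 (1.25 to 9.07) and the log2 fold change by edgeR was 1.61 (SE 0.73, adjusted p = 0.330). The last EGFR window, from 55270001 to 55280000, had 23.3, 21.9 and 17.3 EPM in the QKI-5 libraries and no control event. Its pooled level was 1.51 times the floor of 3 events over the pooled controls. The exact interval of the pooled ratio had a lower bound of 1.22, and the window was not called (adjusted p = 0.281 by edgeR). That window runs past the end of the interval and takes in the 182 events that follow EGFR. The first EGFR window, from 55080001, held 10.3 ± 2.91 EPM in QKI-5 iCLIP and 12.9 ± 12.1 EPM in the control (SD, n = 3 each).

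In MET the window 116410001 to 116420000 had the highest level, with 42.0, 42.9 and 32.5 EPM in the QKI-5 libraries, against 29.0, 24.1 and 134 EPM in the controls. Its log2 fold change was -0.18, which turned to 0.50 without control replicate 3 and to 0.42 with TMM factors. The 134 EPM of control replicate 3 is 4 events, all at 1 nucleotide. The neighbouring window 116400001 to 116410000 had 24.8, 22.4 and 35.0 EPM in the QKI-5 libraries, against 7.25, 0 and 0 EPM in the controls, or 1 event. This was the lowest p in MET, with 2.51 on the log2 scale (SE 1.23, edgeR adjusted p = 0.358). The pooled ratio was 5.61 (0.999 to 222), an interval that did not exclude 1. The window from 116350001, the next by p, had 29.9, 35.5 and 20.1 EPM in the QKI-5 libraries and 14.5, 0 and 0 EPM in the controls. The first window, from 116310001, was the third by p and held 16.4 ± 2.65 EPM in QKI-5 iCLIP and 11.2 ± 19.4 EPM in the control, and the last, from 116430001, held 11.1 ± 1.64 EPM in QKI-5 iCLIP and 8.04 ± 13.9 EPM in the control (SD, n = 3 each).

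In TGFBR2 the window 30710001 to 30720000, which holds the bin at 69 kb, had 29.0, 18.2 and 26.0 EPM in the QKI-5 libraries, against 7.25, 0 and 0 EPM in the controls (edgeR log2 fold change 2.37 with an adjusted p = 0.387). The window from 30690001 had 18.8, 19.1 and 26.7 EPM in the QKI-5 libraries and 7.25, 0 and 0 EPM in the controls. In both, every QKI-5 library exceeded every control, but the control value is 1 event. A single event equals 24.1 EPM in control replicate 2 and 33.5 EPM in control replicate 3, so their zeros do not show separation. The pooled ratio was 5.52 (0.984 to 219) in the window from 30710001 and 4.33 (0.770 to 172) in that from 30690001. Neither interval excluded 1. The window from 30670001 had 14.96, 9.33 and 14.2 EPM in the QKI-5 libraries and no control event. Its pooled level was 0.963 of the floor of 3 pooled control events, so a difference was not detectable at this depth (adjusted p = 0.351 by edgeR). The first window, from 30640001, held 2.16 ± 1.77 EPM in QKI-5 iCLIP and 0 control events, and the last, from 30730001, 10.04 ± 2.14 EPM in QKI-5 iCLIP and 8.04 ± 13.9 EPM in the control (SD, n = 3 each).

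**Figure D4:**
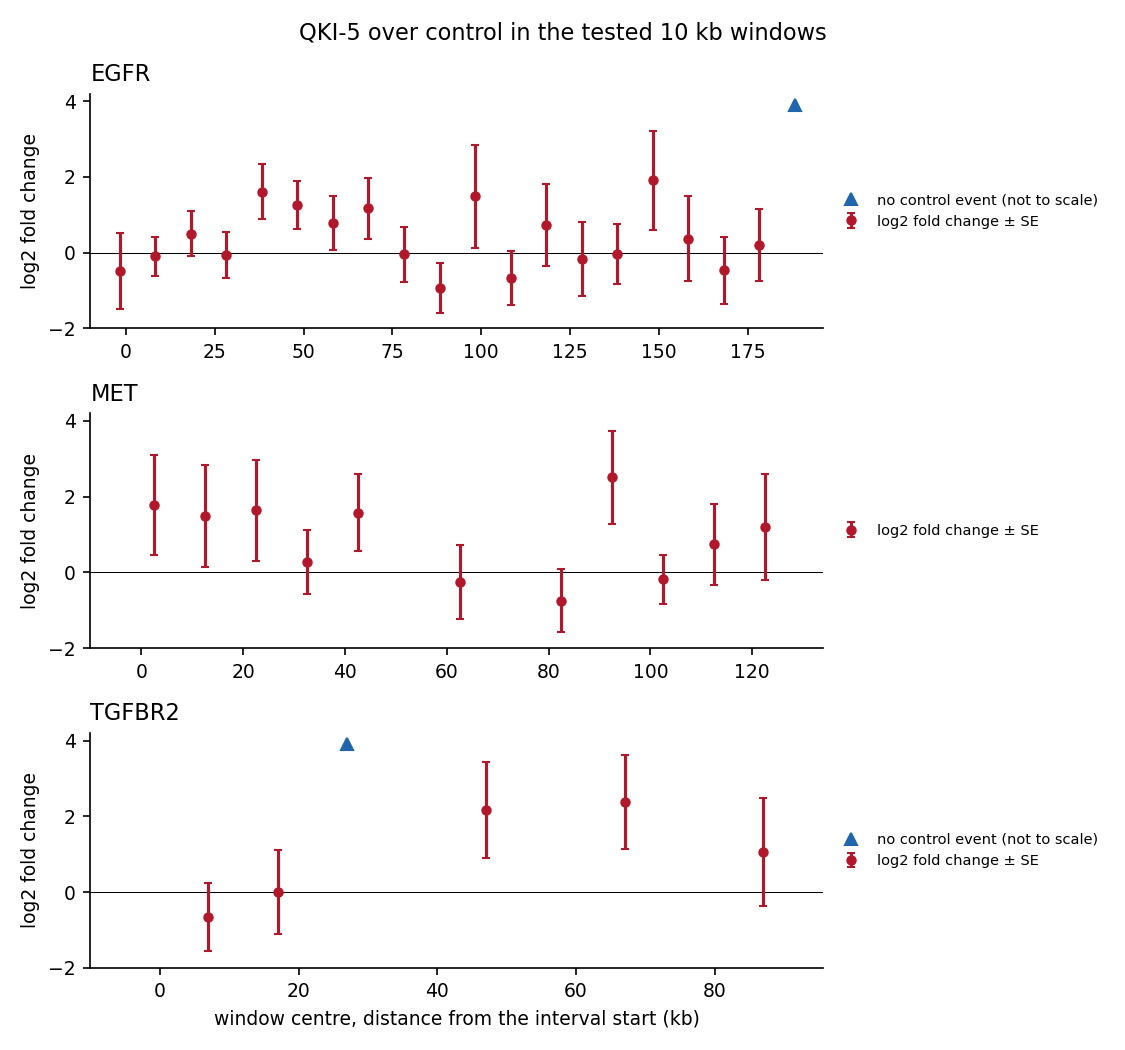
Log2 fold change of QKI-5 over control (± SE) in the tested 10 kb windows by distance of the window centre from the gene start (kb); triangles mark windows with no control event and are not to scale. MET and TGFBR2 windows lie mostly above 0, EGFR windows on both sides, and no window passed an adjusted p of 0.05.

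Recurrent QKI-5 sites were defined as 30 nt bins with at least 3 events in each of the 3 QKI-5 libraries, joined where bins touched. EGFR had 31 sites, MET 10 and TGFBR2 4, or 16.5, 7.94 and 4.56 per 100 kb. Per 1000 QKI-5 events the numbers were 3.61, 3.50 and 2.85. Sites of EGFR lay in the first of the 3 equal parts in 27 of 31 cases, those of MET in 5 of 10 and those of TGFBR2 in 0 of 4. Since the sites were chosen by QKI-5 events, a QKI-5 share above that of the control follows from the choice, and the shares are given as a description. The EGFR sites held 10.8, 13.4 and 11.2% of EGFR events in the QKI-5 libraries, against 7.34% of the pooled control events. The MET sites held 12.8, 18.1 and 14.4% of MET events in the QKI-5 libraries, against 11.1% of pooled control events, all 4 of them at 1 nucleotide in control replicate 3. The TGFBR2 sites held 5.08, 11.7 and 7.21% of TGFBR2 events in the QKI-5 libraries, against 0 of 12 control events. With bins aligned to the chromosome, the share of pooled QKI-5 events in such bins was 12.01% in EGFR, 13.02% in MET and 7.05% in TGFBR2, against 17.7% in the rest of the genome. The number of such bins per 1000 QKI-5 events was 4.19 in EGFR, 3.50 in MET and 3.56 in TGFBR2, against 2.63 in the rest of the genome. The number of sites depends on the libraries and the rule: without QKI-5 replicate 2 there were 82 in EGFR, 27 in MET and 11 in TGFBR2, without QKI-5 replicate 3 there were 75, 17 and 6, and with at least 3 distinct positions in place of events 12, 5 and 1.

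The strongest EGFR site (55133135 to 55133194, 46.4 kb from the start) held 47, 11 and 18 events, or 6.45, 5.13 and 6.23 EPM, in the QKI-5 libraries. They fell on 23, 9 and 8 positions, and the controls had 3 events at 1 position in replicate 3. The libraries were close to each other at this site. At 55122185 to 55122214 the QKI-5 libraries held 3.29, 10.7 and 3.81 EPM, the second library standing above the others, and at 55125365 to 55125394 they held 4.26, 8.40 and 2.42 EPM. These 2 sites lie 35.5 and 38.6 kb from the start. Nearer the start were 55090925 to 55090984 with 5.90, 5.13 and 2.77 EPM, and 55097975 to 55098004 with 5.08, 4.199 and 3.46 EPM. The last 4 sites had no control event.

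The strongest MET site (116347649 to 116347708, 35.2 kb from the start) held 57, 11 and 20 events in the QKI-5 libraries, equal to 7.83, 5.13 and 6.92 EPM, and 0 in the controls. It contains the nucleotide with 25 events in QKI-5 replicate 1, the highest count in the gene. The site at 101.4 kb, from 116413859 to 116413888, held 3.84, 6.07 and 4.85 EPM. The other sites lay at 116351429 to 116351458 with 4.67, 8.40 and 2.08 EPM, at 116398949 to 116398978 with 3.84, 6.999 and 2.77 EPM, and at 116420939 to 116420998 with 5.49, 6.07 and 2.08 EPM. QKI-5 replicate 3 was the lowest library at all 3 of these, and the controls had 0 events at all 5 sites.

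All 4 TGFBR2 sites lay beyond 51 kb of the gene, and 3 of them within 1 kb of each other. These were 30717744 to 30717803 with 2.33, 3.73 and 2.77 EPM in the QKI-5 libraries, 30717264 to 30717293 with 1.10, 1.40 and 2.08 EPM, and 30718044 to 30718073 with 0.686, 2.33 and 1.04 EPM. The other, 30699774 to 30699803, held 1.92, 3.73 and 2.42 EPM. None had a control event. No site named in the 3 genes reached the 14.3 EPM that 3 events over the pooled controls amount to, so a lower level in the controls was not detectable at any of them.

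**Figure D5:**
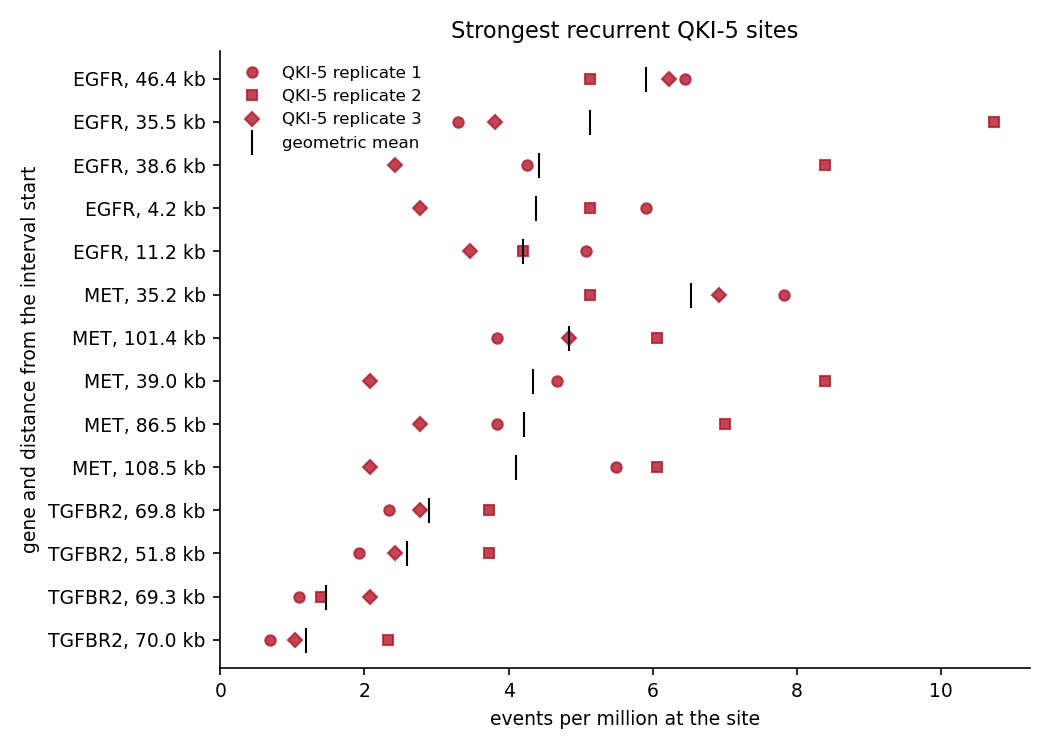
EPM at the 5 strongest recurrent sites of EGFR and MET and the 4 of TGFBR2, 1 mark for each QKI-5 library and a bar for the geometric mean; labels give the distance from the gene start. Sites reach geometric means of 5.91 EPM in EGFR, 6.53 in MET and 2.89 in TGFBR2.

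On the opposite strand of the same intervals events were rare, with an exception in TGFBR2. EGFR had 4, 2 and 0 minus-strand events in the QKI-5 libraries, or 0.0742, 0.129 and 0% of both strands, and MET had 1, 3 and 4, or 0.0567, 0.593 and 0.673%. TGFBR2 had 52, 32 and 46, equal to 5.66% (exact binomial interval 4.26 to 7.36), 13.4% (9.38 to 18.4) and 12.1% (9.02 to 15.9). Controls had 0 minus-strand events against 109 plus-strand events in EGFR, 36 in MET and 12 in TGFBR2, which allows shares of up to 2.75, 8.33 and 25.0%. The plus-strand share in TGFBR2 averaged 89.6 ± 4.17% in QKI-5 iCLIP and 100% in the control (SD, n = 3; exact permutation p = 0.1, the smallest possible).

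Nearly all of these minus-strand events in TGFBR2 fell on 4 nucleotides, 30650804 to 30650808, which lie 2.81 kb from the gene start. They took 51, 32 and 45 events in the QKI-5 libraries, or 7.002, 14.9 and 15.6 EPM, and 2 other minus-strand events lay elsewhere in the interval. The single nucleotide 30650805 held 43, 25 and 32 of them, which is 84.3, 78.1 and 71.1% of the site. All 3 QKI-5 libraries thus shared this nucleotide at a level above that of any plus-strand site of TGFBR2. The controls had 0 events there, and the pooled QKI-5 level of 10.4 EPM is below the 14.3 EPM floor of the pooled controls, so its absence from the controls was not detectable. Without this site the plus-strand share of TGFBR2 in QKI-5 iCLIP differed from that in the control by -0.14 percentage points, against -10.4 with it. Counting each position once gave -1.58. RefSeq (GRCh38.p14) lists LOC105377015 and the pseudogene KLHL25P1 as overlapping TGFBR2. The sources do not say how reads that align to several places were handled, and the origin of these events was not tested.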

How the data were processed

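The deposited files list single-nucleotide crosslink positions with a strand and a whole-number count of events, not normalized by the authors, 1 file for each of 6 libraries. The authors used cutadapt, Bowtie and the hg19 build, per the submitters' processing notes. Not given in the sources are versions, merging of PCR copies and placement of reads that align to several places. Libraries were grouped by their labels as QKI-5 iCLIP or control. Events were summed over the 3 gene intervals, strand-specific 10 kb windows, 1 kb bins and 30 nt bins. The event counts as deposited were fitted over the whole table with edgeR 4.0.16 (R 4.3.3, limma 3.58.1; quasi-likelihood, library totals as scaling, filterByExpr, Benjamini-Hochberg adjustment, group as the only term). DESeq2 1.42.0 was an alternative. Shares and within-library ratios, with 0.5 events added for the ratios, were compared by two-sided exact permutation over libraries (Python 3.11.15, scipy 1.17.1). The fits and the site step were tested on simulated data, and the permutation step on small fixed examples with known answers. The genes, lists and settings were chosen with earlier results of these data known. The text names the 3 windows and 1 kb bins of highest QKI-5 level in each gene, windows of lowest p, the first and last window, and up to 5 recurrent sites for each gene. The shares by 3 equal parts, the removal of the minus-strand site and the share of recurrent bins over the genome were added after the data were seen. Pathway lists, motifs and sequences were left out, as they need an hg19 annotation or genome.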

Additional observations from a re-analysis of the deposited data

How the results depend on the processing

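No gene and no 10 kb window of EGFR, MET or TGFBR2 was called in edgeR or DESeq2 under any of the scalings, filters, window sizes and left-out libraries tried, 17 alternatives for the windows and 14 for the genes. With DESeq2 24 of the 43 windows, including all 10 of TGFBR2, had no adjusted p and could not be called. In the genome the number of windows called was 23 higher and 58 lower with library totals, 226 and 32 with TMM factors, 12 and 81 with TMM factors from 1 Mb windows, 85 and 35 with DESeq2 size factors, 12 and 84 without the 20 windows of largest control share, 0 and 39 without a filter, 6 and 107 with distinct positions, and 399 and 196 with DESeq2. Same-numbered libraries deviated together with r of 0.00116, 0.105 and 0.0717, so the numbers were not treated as pairs. With a replicate block edgeR called 3 windows higher and 17 lower, and gave log2 fold changes of 0.56 for EGFR, 0.27 for MET and 0.91 for TGFBR2 (adjusted p from 0.982 to 1.00). Leaving out 1 library gave log2 fold changes of 0.26 to 0.63 for EGFR, -0.14 to 0.70 for MET and 0.66 to 1.22 for TGFBR2, where the negative MET value is the fit without control replicate 1. The EGFR to TGFBR2 difference ranged from -0.32 to 0.14 over left-out libraries and was 0.21 for distinct positions. The difference in the share of EGFR in its first part ranged from -15.5 to 13.7 percentage points, and that in the last 5 kb of TGFBR2 from -7.26 to 5.24. With at least 5 events per library EGFR had 12 recurrent sites, MET 4 and TGFBR2 1. Left-out libraries gave 0 to 145 windows called higher and 15 to 85 lower in the genome, and without 1 QKI-5 library at most 3 windows of the 3 genes were tested. With 109, 36 and 12 control events in EGFR, MET and TGFBR2, control depth limits each comparison within a gene.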
